A study of Mus musculus with 12 samples.

Results

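Macrophages are the resident phagocytes of the dorsal root ganglion, where they lie around the cell bodies of sensory neurons and along blood vessels. Macrophages take up debris, sense complement fragments and antibody-coated particles through surface receptors, and after damage to a peripheral nerve they are known to become more numerous and more reactive in the ganglia that supply it. Part of this population lives in the ganglion through adult life and part can be replaced by monocytes from the blood. Messenger RNA of 37 macrophage and myeloid genes was followed here, among 23238 gene symbols in the deposited files. The genes were chosen by name, with earlier results of these data known, and without complement components, MHC genes or Csf1r. They were placed in 7 roles. The first were resident macrophage genes, phagocytic and lysosomal genes, and Fc receptor genes. The others were leukocyte surface and adhesion genes, transcription factors, NADPH oxidase subunits, and innate sensing and chemoattractant receptors.

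The samples were dorsal root ganglia of lumbar levels 3 to 5 from C57BL/6 mice of postnatal week 8. Females and males were either sham-operated or given a sciatic nerve injury (SNI). The groups were thus Female SNI, Female sham, Male SNI and Male sham, of 3 libraries each. The sources used here do not state the kind of injury, the time from the operation to dissection or the number of animals in a library. Libraries read the 3′ ends of polyadenylated transcripts, and levels are given as CPM, which are counts scaled to the size of the library.

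Libraries held 12476606 to 15520746 counts. Sensory neuron genes summed to 14100 to 17500 CPM in sham libraries (median 14900) and 12500 to 17700 CPM in SNI libraries (median 13000). None of the 7 genes was missing. Male SNI replicate 2 and Female sham replicate 2 were set apart in earlier results of these data, so the main count is also given without them. Male SNI replicate 1 held 1280 CPM of 6 skeletal muscle genes against 6.2 to 61.8 CPM in the other libraries. All 37 genes passed the filter on low counts, but 9 of them had fewer than 10 counts in at least 1 library. The labels do not say that the libraries of a group came from separate animals, so the spread behind every p-value is that between libraries and could be technical. In whole tissue, more cells of a type and more RNA per cell cannot be told apart.

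The first question was which of these genes changed after nerve injury when females and males were averaged. Of the 37 genes, 15 rose and none fell in edgeR's quasi-likelihood test at a Benjamini-Hochberg adjusted p below 0.05. Over all 15036 genes tested, 3.78% rose and 2.73% fell. Because the 37 genes were chosen with earlier results known, shares of all genes are given only as background. At an unadjusted p below 0.05, 25 of the 37 were higher and 0 lower. At that threshold 1294 of all 15036 genes were lower, and the share of all genes that were higher was not counted. DESeq2 called 23 of the 37 higher and 5.29% of all genes. With limma 22 of the 37 and 6.82% of all genes were called higher. Both tools called 0 of the 37 lower. Where no tool is named, a gene that rose, passed or was called did so in edgeR's test. The genes that rose were Cx3cr1, Mrc1, Cd163 and Adgre1 of the resident genes, Ctss, Trem2, Tyrobp, Lgals3 and Pld4 of the phagocytic genes, Fcgr3 and Fcer1g of the Fc receptor genes, and Aif1, Itgam, Spi1 and C3ar1.

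Most changes were of moderate size. The median log2 change of the 37 genes was 0.99, against 0.00 for all genes tested, and 34 of the 37 had a change above 0, as did 50.5% of all genes. A rise of at least 2-fold that passed the test was found for 12 of the 37 and for 1.67% of all genes. In 10 of the 37, each of the 6 SNI libraries lay above each of the 6 sham libraries, which was so for 2.79% of all genes. These 10 were Ctss, Trem2, Tyrobp, Lgals3, Fcgr3, Fcer1g, Aif1, Itgam, Spi1 and C3ar1. Without Male SNI replicate 2 and Female sham replicate 2 together, 21 of the 37 rose, including all 15 named above, and 6.69% of all genes did.

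**Figure D1:**
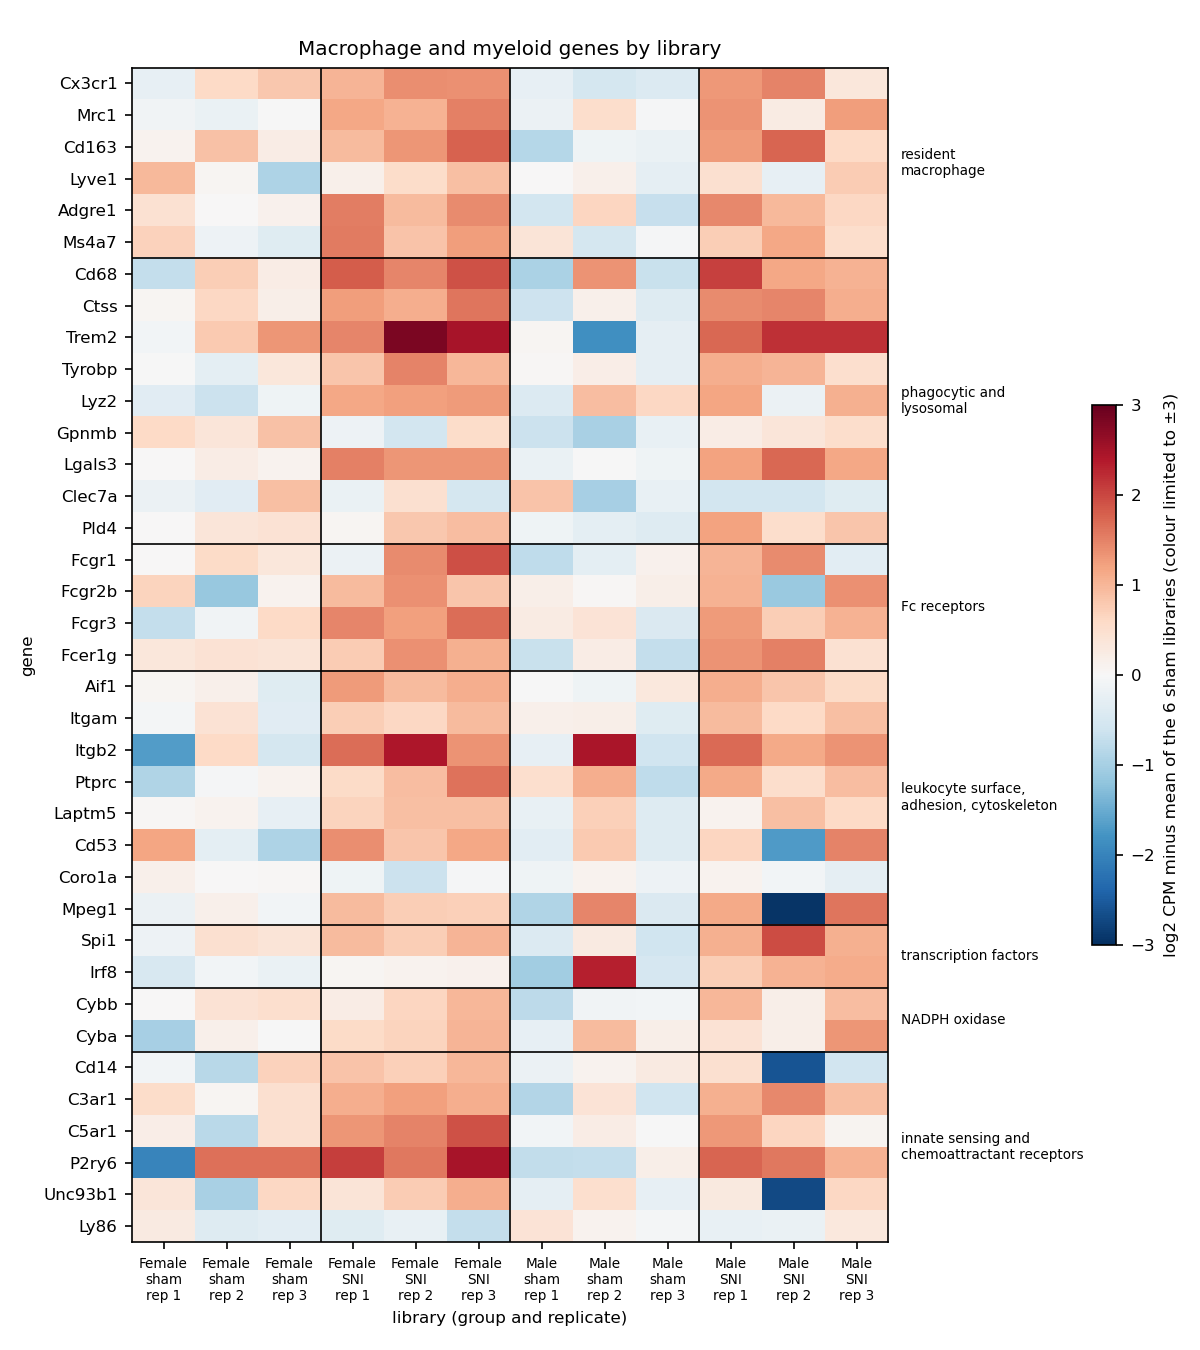
Colour map of the 37 genes (rows, grouped by role) in the 12 libraries (columns), where colour is log2 CPM minus the mean of that gene in the 6 sham libraries, limited to 3 either way. The SNI columns are mostly red in the resident, phagocytic and Fc receptor rows, Mpeg1, Cd14 and Unc93b1 are dark blue in Male SNI replicate 2, and Irf8 is dark red in Male sham replicate 2.

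Resident macrophage genes rose in 4 of 6 cases, with a median log2 change of 1.14 over the 6. DESeq2 and limma each called 5 of the 6, with Ms4a7 as the added gene. Cx3cr1, the receptor for the neuronal chemokine fractalkine, was at 13.2, 23.5 and 27.5 CPM in the female sham libraries and at 31.8, 40.9 and 40.6 CPM in female SNI, and at 13.2, 10.8 and 11.8 CPM in male sham and 38.4, 44.3 and 19.9 CPM in male SNI. Within each sex all SNI libraries lay above all sham libraries, but Male SNI replicate 3 was below 2 of the female sham libraries. The log2 change was 1.17 ± 0.21 (SE; adjusted p = 0.00368).

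Mrc1, the mannose receptor of tissue macrophages, was at 9.37, 8.78 and 10.1 CPM in the female sham libraries, against 22.9, 20.9 and 28.9 CPM in female SNI libraries, and at 8.91, 14.6 and 9.87 CPM in male sham and 26.1, 12 and 24.4 CPM in male SNI. The female groups stood well apart, while in males the lowest SNI library, replicate 2, was below the highest sham library, replicate 2. Averaged over the sexes Mrc1 rose by 1.13 ± 0.20 on the log2 scale (adjusted p = 0.00339). Cd163, a scavenger receptor for haemoglobin bound to haptoglobin, rose by 1.32 ± 0.25 (2.15 to 7.49 CPM in sham and 6.16 to 14.2 CPM in SNI libraries; adjusted p = 0.00586).

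Adgre1, a surface receptor widely used as a macrophage marker, rose by 1.14 ± 0.26 (2.61 to 6.89 CPM in sham and 6.71 to 12.8 CPM in SNI libraries; adjusted p = 0.0169). Its call ended without Female SNI replicate 1 (1.08, adjusted p = 0.0519) and without Male sham replicate 1 (1.04, adjusted p = 0.0537). Ms4a7, a membrane protein gene of macrophages, was at 1.03 ± 0.30 and did not pass (adjusted p = 0.056), although SNI lay above sham in both sexes. Leaving out Female sham replicate 1 brought it to 1.23 and adjusted p = 0.0327.

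Lyve1 was the resident gene with the least evidence of change. This hyaluronan receptor marks lymphatic vessels and a class of macrophages beside blood vessels. Lyve1 was at 12.4, 6.51 and 3.24 CPM in the female sham libraries, 6.96, 9.32 and 11.8 CPM in female SNI, 6.31, 6.97 and 5.22 CPM in male sham and 8.86, 5.3 and 10.8 CPM in male SNI. The groups overlapped in both sexes, and the log2 change was 0.39 ± 0.29 (adjusted p = 0.554).

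Phagocytic and lysosomal genes held both the most clearly changed gene of the set and genes that showed no call in any setting. Of 9 genes 5 rose, and the median log2 change was 1.01. DESeq2 and limma each called 7 of the 9, adding Cd68 and Lyz2. Lgals3 encodes galectin-3, a sugar-binding protein that macrophages secrete and that some sensory neurons are also known to make. Lgals3 was at 35.4, 41.5 and 38 CPM in the female sham libraries, against 102, 88.3 and 88.9 CPM in female SNI libraries, and at 30.5, 35.3 and 32.3 CPM in male sham and 82.3, 118 and 78.8 CPM in male SNI. The lowest SNI library, at 78.8 CPM, was far above the highest sham library, at 41.5 CPM, and the change was 1.39 ± 0.11 on the log2 scale (adjusted p = 3.97e-06).

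Ctss encodes cathepsin S, a lysosomal protease that macrophages can also release. Ctss was at 21.9, 32.5 and 23.7 CPM in the female sham libraries, 50.4, 45.4 and 64.6 CPM in female SNI, 13.7, 23.4 and 16.2 CPM in male sham and 57, 58.2 and 45.1 CPM in male SNI. No SNI library overlapped a sham library, and the change was 1.31 ± 0.16 (adjusted p = 0.00017).

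Trem2, a receptor for lipids and lipoproteins, had the largest estimated change of the 37, at 2.26 ± 0.45 (adjusted p = 0.0074), but at a low level. Its levels were 0.6, 1.21 and 1.82 CPM in the female sham libraries, 2.02, 5.44 and 4.19 CPM in female SNI, 0.669, 0.0766 and 0.51 CPM in male sham and 2.44, 3.46 and 3.42 CPM in male SNI. Male sham replicate 2 held a single count of Trem2 and the SNI libraries held 30 to 80 counts each. Tyrobp, the adaptor through which Trem2 signals, rose by 1.01 ± 0.19 (4.62 to 7.21 CPM in sham and 8.15 to 16.3 CPM in SNI libraries; adjusted p = 0.00562).

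Pld4, an exonuclease of endosomes and lysosomes, rose by 0.77 ± 0.20 (3.95 to 7.08 CPM in sham and 5.4 to 12.2 CPM in SNI libraries; adjusted p = 0.0374). Of the fits that left out 1 library, Pld4 kept its call in those that dropped replicate 1 of Female SNI or replicate 2 or 3 of Male SNI, and the other fits gave 0.67 to 0.82.

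The other 4 phagocytic genes did not pass in edgeR, of which Cd68 and Lyz2 passed in DESeq2 and limma. Cd68, a lysosomal membrane glycoprotein, was at 1.43 ± 0.42 (0.817 to 4.52 CPM in sham and 3.63 to 7.48 CPM in SNI libraries; adjusted p = 0.0587). Its sham libraries were uneven, and without Male sham replicate 2, which held the 4.52 CPM, the change was 2.02 with adjusted p = 0.00503. Without Male SNI replicate 2 it was 1.51 with adjusted p = 0.0227. Lyz2, the lysozyme of macrophages and neutrophils, was at 0.99 ± 0.29 (1.74 to 5.44 CPM in sham and 2.46 to 6.98 CPM in SNI libraries; adjusted p = 0.0623), and at 1.16 with adjusted p = 0.00584 without Male SNI replicate 2. Lyz2 has a close paralog, Lyz1, and the sources used here do not state how shared reads were counted.

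Gpnmb, a glycoprotein of lysosomes and melanosomes, was at 6.15, 5.22 and 7.48 CPM in the female sham libraries, 3.58, 2.72 and 5.95 CPM in female SNI, 2.53, 1.99 and 3.44 CPM in male sham and 4.72, 5.23 and 5.89 CPM in male SNI. The male SNI libraries lay above the male sham libraries, whereas in females the SNI libraries were at the same level or lower. The averaged change was 0.18 ± 0.24 (adjusted p = 0.782). Clec7a, a receptor for fungal beta-glucan, was at -0.43 ± 0.41 (0.919 to 3.78 CPM in sham and 1.3 to 2.79 CPM in SNI libraries; adjusted p = 0.663).

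Promoter sequences are shown for genes that rose and hold a short motif of myeloid or injury-linked transcription factors, with 1 gene that was not called beside them. RefSeq windows of GRCm38.p6, from 250 bases before to 50 after the annotated start, were found for 29 of the 37 genes. An 8-letter core bound by PU.1 (GAGGAAGT, searched on both strands) stood in the windows of 3 of these 29 genes, or 10.3%, and of 3.69% of all 27025 genes with a window. Capitals mark that core, or its reverse complement, in the first 3 sequences.
Ctss, chr3:95526536-95526835, plus strand: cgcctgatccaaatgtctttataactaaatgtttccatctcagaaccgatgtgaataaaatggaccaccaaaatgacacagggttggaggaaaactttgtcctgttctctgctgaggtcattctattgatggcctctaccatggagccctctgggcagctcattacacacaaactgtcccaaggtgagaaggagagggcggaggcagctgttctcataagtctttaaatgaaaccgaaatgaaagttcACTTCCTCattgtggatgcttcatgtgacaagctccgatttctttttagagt
Pld4, chr12:112760405-112760704, plus strand: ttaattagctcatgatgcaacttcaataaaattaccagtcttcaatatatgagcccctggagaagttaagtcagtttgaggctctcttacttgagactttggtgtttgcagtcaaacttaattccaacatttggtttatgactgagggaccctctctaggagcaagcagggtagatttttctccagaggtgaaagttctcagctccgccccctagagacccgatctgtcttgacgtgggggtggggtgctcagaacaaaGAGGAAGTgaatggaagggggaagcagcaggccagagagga
Cd53, chr3:106790100-106790399, minus strand: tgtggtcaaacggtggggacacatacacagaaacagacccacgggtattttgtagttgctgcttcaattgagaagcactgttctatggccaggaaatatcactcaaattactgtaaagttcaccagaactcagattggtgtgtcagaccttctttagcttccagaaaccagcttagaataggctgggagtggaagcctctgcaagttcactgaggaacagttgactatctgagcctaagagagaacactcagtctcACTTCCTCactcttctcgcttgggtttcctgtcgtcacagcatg

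The start that a window is built on is its base 251, and the core began at base 249 in Ctss, 260 in Pld4 and 257 in Cd53. For Ctss and Cd53 that start is the start RefSeq lists for the gene, whereas for Pld4 it lies 209 bases inside the listed gene, at base 112760655 of chromosome 12 against 112760446. Ctss and Pld4 rose and Cd53 did not pass. A composite of an ETS and an IRF element (GGAA, 2 free bases and GAAA, both strands) was found in 4 of the 29 genes, Cd68, Clec7a, Cybb and Fcgr2b, or 13.8%, against 3.16% of all genes, and edgeR called 0 of the 4, while DESeq2 and limma each called Cd68 and Cybb. An AP-1-like element with any base at its centre (TGANTCA, both strands) was found in 6 of the 29, or 20.7%, against 8.97% of all genes. Of these 6, C3ar1 and Trem2 rose and Cd68, Cybb, Gpnmb and Ms4a7 were not called by edgeR, although DESeq2 and limma called all of these but Gpnmb. Of the genes named for these last 2 elements, Clec7a, Ms4a7 and Cybb also had windows built on a start inside the listed gene, by 6, 1451 and 18442 bases. These matches describe letters in a window and were not tested against the changes. The AP-1-like element is in capitals in the windows of the genes that rose, as TGACTCA in C3ar1 and TGAATCA in Trem2.
C3ar1, chr6:122856108-122856407, minus strand: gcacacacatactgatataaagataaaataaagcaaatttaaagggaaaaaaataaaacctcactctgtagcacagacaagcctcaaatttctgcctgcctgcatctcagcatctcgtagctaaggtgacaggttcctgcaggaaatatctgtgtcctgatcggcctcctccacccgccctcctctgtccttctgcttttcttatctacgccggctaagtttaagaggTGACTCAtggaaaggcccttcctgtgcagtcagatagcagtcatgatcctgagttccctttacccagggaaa
Trem2, chr17:48346151-48346450, plus strand: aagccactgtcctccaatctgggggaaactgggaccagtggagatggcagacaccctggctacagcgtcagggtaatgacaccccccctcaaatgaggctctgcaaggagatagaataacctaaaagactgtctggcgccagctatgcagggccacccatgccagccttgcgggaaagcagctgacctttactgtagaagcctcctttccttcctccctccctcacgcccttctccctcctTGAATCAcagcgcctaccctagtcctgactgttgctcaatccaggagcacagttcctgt

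Fc receptor genes encode the proteins with which phagocytes bind antibody-coated targets. Of 4 genes 2 rose, an activating receptor and the shared signalling chain, with a median log2 change of 1.13 over the 4. DESeq2 and limma also called 2 of the 4. Fcgr2b, Fcgr3 and Fcer1g lie in a cluster on chromosome 1, between bases 170960558 and 171234349 of GRCm38, and Fcgr1 lies on chromosome 3 (96282909 to 96293969).

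Fcgr3, an activating receptor of low affinity for IgG, was at 3, 4.62 and 7.55 CPM in the female sham libraries, 14.1, 11.9 and 16.3 CPM in female SNI, 5.94, 6.66 and 3.63 CPM in male sham and 12.4, 8.38 and 10.4 CPM in male SNI. All SNI libraries were above all sham libraries, and the change was 1.21 ± 0.24 (adjusted p = 0.00646). Fcer1g, the gamma chain that activating Fc receptors need for signalling, was at 9.22, 9.91 and 9.64 CPM in the female sham libraries, 12.6, 19 and 15.4 CPM in female SNI, 4.53, 8.57 and 4.39 CPM in male sham and 18.9, 21.1 and 10.1 CPM in male SNI. The lowest SNI library, Male SNI replicate 3, was only slightly above the highest sham library, and the change was 1.11 ± 0.22 (adjusted p = 0.0074).

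Fcgr2b, the inhibitory IgG receptor, did not pass, at 0.88 ± 0.44 (adjusted p = 0.312). It was at 2.47, 0.605 and 1.62 CPM in the female sham libraries, 3.06, 4.15 and 2.79 CPM in female SNI, 1.71, 1.53 and 1.72 CPM in male sham and 3.25, 0.615 and 4.11 CPM in male SNI. Apart from Male SNI replicate 2, with 8 counts, every SNI library was above every sham library. Parts of Fcgr2b and Fcgr3 are nearly identical in sequence, so reads could be split between them and both values are uncertain in that respect. Fcgr1, the high-affinity IgG receptor, was at 1.15 ± 0.47 (0.52 to 1.51 CPM in sham and 0.753 to 4.11 CPM in SNI libraries; adjusted p = 0.2).

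The 3 roles described so far were also summed within each library. Summed CPM of the 6 resident genes was 34.9 to 52.4 in sham and 70.7 to 112 in SNI libraries. The 9 phagocytic genes summed to 64.6 to 97.8 and 162 to 212 CPM, and the 4 Fc receptor genes to 10.8 to 20.1 and 25.4 to 38.6 CPM. For all 3 sums the lowest SNI library was above the highest sham library. The ratio of the phagocytic to the resident sum was 1.64 to 1.95 in sham and 1.79 to 2.39 in SNI libraries, and that of the Fc receptor to the resident sum was 0.31 to 0.396 and 0.344 to 0.405. Lgals3 made up a large part of the phagocytic sum, and without it that ratio was 0.912 to 1.08 in sham and 0.976 to 1.17 in SNI libraries. Sham and SNI ranges overlapped for each of these ratios, which are given as descriptions with no test.

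**Figure D2:**
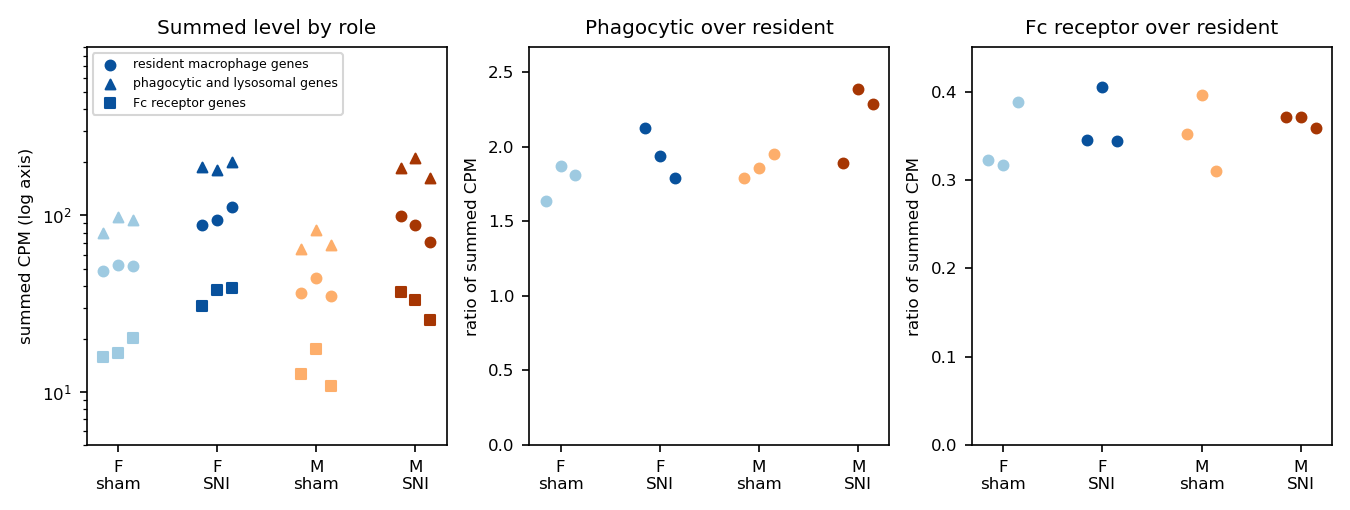
Left, summed CPM of the resident, phagocytic and Fc receptor genes in each library on a log axis; middle and right, the ratio of the phagocytic and of the Fc receptor sum to the resident sum. Each point is 1 library, with F for female and M for male; all 3 sums are higher in SNI, while the ratios of sham and SNI libraries overlap.

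Of 8 leukocyte surface, adhesion and cytoskeleton genes, which many white blood cells share, 2 rose, and the median log2 change was 0.77. DESeq2 called 4 of the 8, adding Ptprc and Laptm5, and limma called 5, adding Itgb2 as well. Aif1, a calcium-binding protein also called IBA1 and used to stain macrophages and microglia, was at 4.8, 5.15 and 3.57 CPM in the female sham libraries, 11.5, 9.11 and 10.1 CPM in female SNI, 4.61, 4.21 and 5.8 CPM in male sham and 10, 8.3 and 6.99 CPM in male SNI. The states did not overlap, and Aif1 rose by 0.99 ± 0.18 (adjusted p = 0.00446).

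Itgam, the alpha chain of the complement receptor integrin, was at 3.45, 4.92 and 2.83 CPM in the female sham libraries, 6.05, 5.58 and 7.13 CPM in female SNI, 4.01, 4.06 and 2.74 CPM in male sham and 7.07, 5.53 and 6.85 CPM in male SNI. It rose by 0.80 ± 0.21 (adjusted p = 0.0385). Although no SNI library overlapped a sham library, the call was kept only when the library dropped was replicate 2 of Female sham or of Male SNI, and the other 10 fits gave 0.71 to 0.84. Itgb2, the beta chain that pairs with it, was at 1.34 ± 0.64 (0.075 to 3.67 CPM in sham and 1.38 to 3.6 CPM in SNI libraries; adjusted p = 0.287). The 3.67 CPM was that of Male sham replicate 2, without which the change was 2.30 (adjusted p = 0.0445).

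Male sham replicate 2 was also the highest sham library for Ptprc, Laptm5 and Mpeg1. Ptprc, the phosphatase CD45 of all white blood cells, was at 0.89 ± 0.31 (2.62 to 10.9 CPM in sham and 7.38 to 15.8 CPM in SNI libraries; adjusted p = 0.114), and among the fits without 1 library it passed only without Male SNI replicate 2 (0.97, adjusted p = 0.0421). Laptm5, a lysosomal membrane protein of blood cells, was at 0.66 ± 0.20 (11 to 24 CPM in sham and 15.5 to 27.5 CPM in SNI libraries; adjusted p = 0.0694), and passed without Male sham replicate 2 (0.87, adjusted p = 0.00934) or Male SNI replicate 1 (0.75, adjusted p = 0.0464).

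Mpeg1, a pore-forming protein that macrophages use against ingested bacteria, varied widely between male libraries. It was at 2.92, 3.71 and 3.17 CPM in the female sham libraries, 6.64, 5.64 and 5.58 CPM in female SNI, 1.71, 9.49 and 2.42 CPM in male sham and 7.56, 0.307 and 10.4 CPM in male SNI. The female groups did not overlap, while in males 1 sham library was high and 1 SNI library held only 4 counts, so that the change was 0.65 ± 0.55 (adjusted p = 0.614). Cd53, a tetraspanin of white blood cells, was at 0.74 ± 0.51 (0.876 to 4.27 CPM in sham and 0.461 to 5.34 CPM in SNI libraries; adjusted p = 0.503).

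Coro1a, an actin regulator of white blood cells, was at 48.4, 44 and 44.8 CPM in the female sham libraries, 40.3, 28.2 and 43 CPM in female SNI, 40, 47.4 and 39.4 CPM in male sham and 47.2, 41.6 and 36.4 CPM in male SNI. Each female SNI library lay below each female sham library, while the male ranges overlapped, and the averaged change of -0.16 ± 0.12 did not pass (adjusted p = 0.563). Its exons overlap those of Bola2 over 26 bases on the other strand, and Bola2 had a mean of 91.4 CPM, so the value of Coro1a is uncertain.

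Of the transcription factors, Spi1 rose and Irf8 was not called. Spi1 encodes PU.1, which is required for the myeloid lineage. Spi1 was at 3.67, 5.75 and 5.39 CPM in the female sham libraries, 8, 6.94 and 8.37 CPM in female SNI, 3.05, 4.98 and 2.68 CPM in male sham and 8.78, 16.2 and 8.7 CPM in male SNI. Every SNI library was above every sham library, and the change was 1.15 ± 0.23 (adjusted p = 0.00793).

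Irf8, a partner of PU.1 in monocytes, macrophages and B cells, was at 4.87, 6.43 and 5.93 CPM in the female sham libraries, 7.16, 7.34 and 7.49 CPM in female SNI, 3.27, 35.3 and 4.78 CPM in male sham and 11.5, 14.2 and 15 CPM in male SNI. Apart from Male sham replicate 2 at 35.3 CPM, every SNI library was above every sham library. The change was 0.13 ± 0.44 with all libraries (adjusted p = 0.933) and 1.05 without Male sham replicate 2 (adjusted p = 0.00584). In Male sham replicate 2 the summed B cell genes were at 4.52 CPM and the dendritic cell genes at 31.6 CPM, the highest of the 12 libraries in both cases, and T and NK cell genes at 8.34 CPM, also the highest. Their part in the Irf8 value was not tested.

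Both membrane subunits of the phagocyte NADPH oxidase, which makes superoxide, had positive changes that did not pass. Cybb was at 17.5, 23.2 and 24.6 CPM in the female sham libraries, 20.2, 26.8 and 34.7 CPM in female SNI, 9.95, 16 and 16.2 CPM in male sham and 34.3, 19.4 and 32.7 CPM in male SNI. The male groups did not overlap and the female groups did, with a change of 0.68 ± 0.19 (adjusted p = 0.0514). Leaving out Male SNI replicate 2 gave 0.79 (adjusted p = 0.00365) and leaving out Female SNI replicate 1 gave 0.76 (adjusted p = 0.0453).

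Cyba was at 1.87, 4.39 and 3.84 CPM in the female sham libraries, 5.86, 6.32 and 8.08 CPM in female SNI, 3.27, 7.66 and 4.39 CPM in male sham and 5.28, 4.46 and 9.93 CPM in male SNI. Here the females did not overlap and the males did, and the change was 0.68 ± 0.29 (adjusted p = 0.223). Of the 2 subunits, none was called by edgeR, both had an unadjusted p below 0.05, and DESeq2 and limma each called 1.

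Among the innate sensing and chemoattractant receptors 1 of 6 rose, with a median of 0.69. DESeq2 called 3 of the 6, adding C5ar1 and P2ry6, and limma called 1. C3ar1, the receptor for the complement fragment C3a, was at 7.42, 5.22 and 7.01 CPM in the female sham libraries, 10.9, 12 and 10.9 CPM in female SNI, 2.67, 6.74 and 3.25 CPM in male sham and 10.7, 13.9 and 9.52 CPM in male SNI. All SNI libraries lay above all sham libraries, and C3ar1 rose by 1.11 ± 0.23 (adjusted p = 0.00844).

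C5ar1, the receptor for C5a, had a change of similar size at a far lower count. It was at 0.75, 0.303 and 0.944 CPM in the female sham libraries, 1.82, 2.04 and 2.79 CPM in female SNI, 0.594, 0.766 and 0.637 CPM in male sham and 1.79, 1.08 and 0.685 CPM in male SNI. The change was 1.27 ± 0.44 and did not pass (adjusted p = 0.118). P2ry6, a receptor for UDP released by damaged cells, was at 1.55 ± 0.55 (0.075 to 2.57 CPM in sham and 1.64 to 4.63 CPM in SNI libraries; adjusted p = 0.128).

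Cd14, the co-receptor for bacterial lipopolysaccharide, was at 1.12, 0.605 and 2.02 CPM in the female sham libraries, 2.28, 2.04 and 2.5 CPM in female SNI, 1.04, 1.3 and 1.46 CPM in male sham and 1.71, 0.0768 and 0.753 CPM in male SNI. Its change was 0.13 ± 0.53 (adjusted p = 0.949), and Male SNI replicate 2 held a single count. Unc93b1, which carries toll-like receptors to endosomes, was at 0.27 ± 0.42 (4.92 to 15.2 CPM in sham and 1.38 to 21 CPM in SNI libraries; adjusted p = 0.814), with the 1.38 CPM again in Male SNI replicate 2. Ly86, a secreted partner of a toll-like receptor relative on B cells and macrophages, was at -0.24 ± 0.15 (28.1 to 48.7 CPM in sham and 22.3 to 45.6 CPM in SNI libraries; adjusted p = 0.479).

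**Figure D3:**
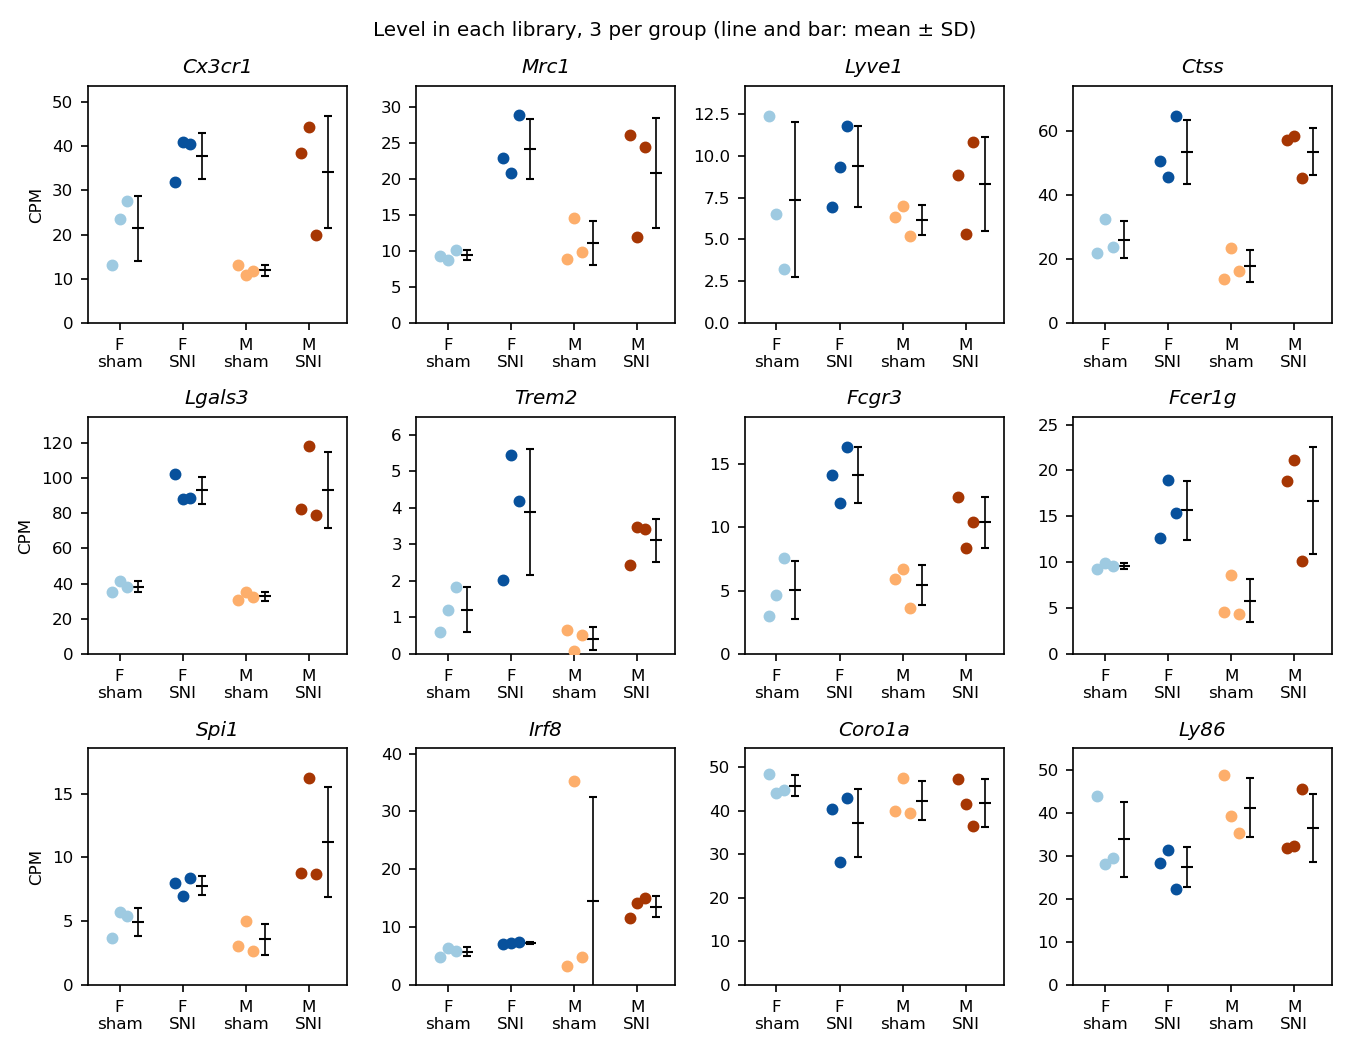
Level in CPM of 12 genes in each library, by group (F female, M male; points are libraries, line and bar are mean ± SD of 3). Ctss, Lgals3, Trem2, Fcgr3, Fcer1g and Spi1 do not overlap between sham and SNI; Lyve1, Coro1a and Ly86 do, and Irf8 shows the single high Male sham library at 35.3 CPM.

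The next comparison asked whether females and males differed in this response. In females alone 6 of the 37 genes rose, Mrc1, Ctss, Tyrobp, Lgals3, Fcgr3 and Aif1, where 1.6% of all genes rose. In males alone 8 rose, Cx3cr1, Cd163, Ctss, Trem2, Lgals3, Fcer1g, Spi1 and C3ar1, where 1.65% of all genes rose. Ctss and Lgals3 were called in both sexes. Without any 1 of the 6 female libraries the female count was 1 or 2: dropping replicate 1 or 3 of Female SNI or 1 of Female sham left 1, and dropping replicate 2 of Female SNI or 2 or 3 of Female sham left 2. In males the count was 3 without Male SNI replicate 1, 2 without Male sham replicate 1, 2 without Male sham replicate 3 and 5 without Female SNI replicate 2, whose group is not part of that contrast but shares the model's estimate of spread.

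A gene called in a single sex was not shown to differ between them. The difference of the changes, males minus females, passed for 0 of the 37 genes and for 0% of all genes in edgeR, and DESeq2 and limma also called 0 of the 37. The lowest adjusted p was 0.647. At an unadjusted p below 0.05 there were 3 of the 37 genes, and the share of all genes at that threshold was not counted. Gpnmb had the largest of these differences, 1.61 ± 0.49 on the log2 scale, with -0.62 ± 0.34 in females and 0.99 ± 0.35 in males. Spi1 was at 0.65 ± 0.33 in females and 1.66 ± 0.33 in males, with an SE of 0.46 on the difference. Lyz2 went the other way, at 1.64 ± 0.42 in females and 0.35 ± 0.41 in males, a difference of -1.29 ± 0.58. Over the 37 genes the change was larger in males for 18 and in females for 19, and the medians were 0.97 in females and 0.88 in males.

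Within each sex more genes separated than were called. SNI lay above sham without overlap for 26 of the 37 in females, against 13.1% of all genes, and for 17 in males, against 9.09% of all genes. In both sexes 13 of the 37 did so, and the share of all genes that did so in both was not counted. Resident genes did so for 5 of 6 in females and 3 of 6 in males, phagocytic genes for 6 of 9 in each sex, and Fc receptor genes for 3 of 4 and 2 of 4.

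Levels of the 2 sexes were also set side by side within each state. In sham ganglia 0 of the 37 genes differed, with a lowest adjusted p of 0.938, where 0.0266% of all genes were higher in males and 0.0133% lower. At an unadjusted p below 0.05 there were 7 genes, Cx3cr1, Cd163, Ctss, Trem2, Gpnmb, Fcer1g and Cybb. All 7 were lower in males, from -0.55 for Ctss to -1.51 for Trem2. The share of all genes at that threshold was not counted, so this number has no background beside it. After injury 0 of the 37 differed (lowest adjusted p of 0.881), and 0 had an unadjusted p below 0.05. DESeq2 and limma called 0 of the 37 in both of these comparisons. The male sham libraries enter both the sham comparison and the injury change of males.

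**Figure D4:**
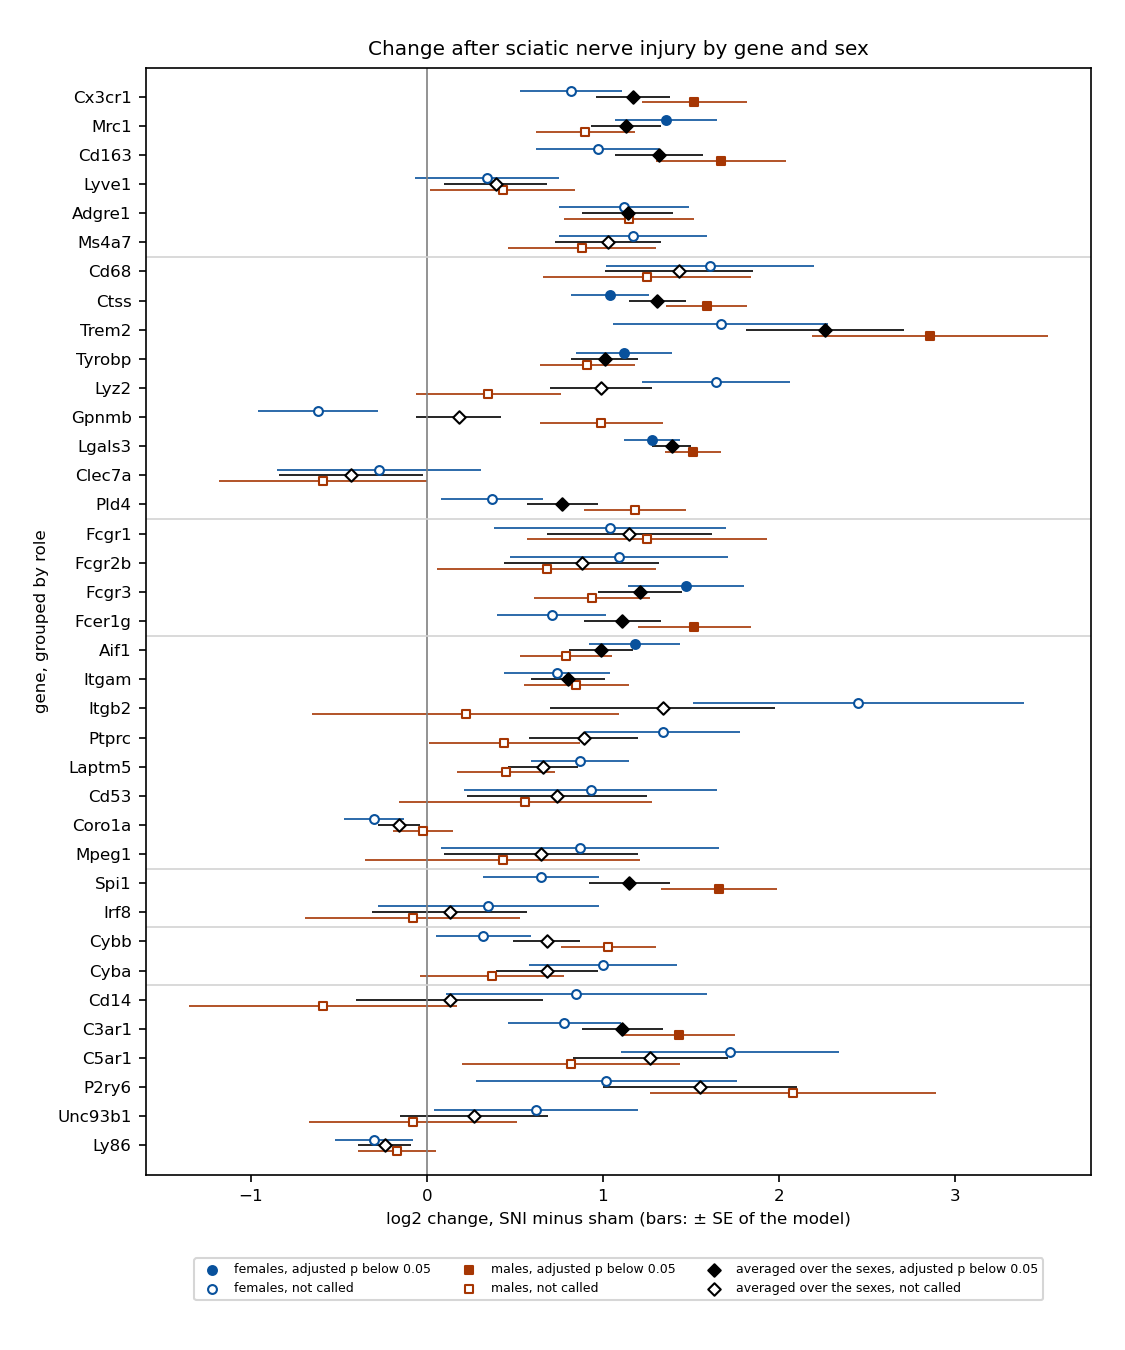
Log2 change from sham to SNI for the 37 genes, grouped by role, in females (circles), males (squares) and averaged over the sexes (diamonds); bars are ± SE of the model and filled symbols passed an adjusted p of 0.05. Of the averaged changes 15 are filled and all 15 are above 0. The female and male bars lie on separate ranges for several genes, among them Cx3cr1, Ctss, Spi1, Gpnmb and Lyz2. No difference between the sexes passed.

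Other myeloid genes were read from lists chosen with earlier results of these data known. Of 40 further myeloid genes DESeq2 called 8 higher and 1 lower, and limma called 12 higher and 2 lower. In edgeR 4 of the 40 rose and 1 fell, where 3.78% of all genes rose and 2.73% fell. The median log2 change of the 40 was 0.61. Among them Abca1, a cholesterol exporter of foam cells and many other cells, rose by 1.19 ± 0.15 (53.7 to 122 CPM as means of 6 libraries; adjusted p = 0.000216). Myo1f, a myosin of white blood cells, rose by 1.95 ± 0.49 (adjusted p = 0.0275) at means of 0.918 and 3.59 CPM, and the call was lost when replicate 2 or 3 of Female SNI, 2 or 3 of Female sham, or 1 or 3 of Male sham was dropped, with changes of 1.72 to 1.95. Runx1, a factor of blood and of sensory neurons, was the gene that fell, at -0.37 ± 0.11 (adjusted p = 0.0499), and the only library whose removal kept the call was replicate 2 of Male SNI.

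Genes of recruited monocytes and further genes of resident macrophages were read against the 3.78% of all genes that rose. Of 8 monocyte genes 2 rose, with a median of 0.80, and DESeq2 called 3 and limma 4. Ccr2, the receptor that draws monocytes from the blood, rose by 0.96 ± 0.23 (6.28 to 12.2 CPM as means of 6; adjusted p = 0.0201), but the call was lost when replicate 2 or 3 of Female SNI, or replicate 1 of either sham group, was dropped, at 0.90, 0.96, 0.88 and 0.85. F13a1, the factor XIII A chain that macrophages and monocytes make, rose by 1.37 ± 0.21 (9.54 to 24.8 CPM as means of 6; adjusted p = 0.00135) and belongs to both lists. Of 5 tested resident genes 3 rose (4 in DESeq2 and 3 in limma), F13a1, the chemokine gene Pf4 at 0.71 ± 0.12 and the scavenger receptor gene Stab1 at 1.15 ± 0.22. The exons of Stab1 overlap those of Nt5dc2, so its value is uncertain. Over the 5 genes the median log2 change was 1.15, and the changes ran from -0.18 to 1.49.

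Genes that define microglia, the macrophages of the brain and spinal cord, were read from a list of 6. Of these, 5 were tested and 1 rose, where 3.78% of all genes rose. DESeq2 and limma each called 1 higher. Fcrls, an Fc receptor-like gene, rose by 1.96 ± 0.26 (7.93 to 30.8 CPM as means of 6; adjusted p = 0.000332), a larger estimate than for any of the 37 genes except Trem2. P2ry12 and Tmem119 were at 0.91 ± 0.34 and 0.77 ± 0.32 and did not pass, and no library exceeded 4.49 and 7.89 CPM. Sall1 was not tested and reached at most 0.594 CPM.

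Markers of other white blood cells were read beside these results because several of the 37 genes, such as Ptprc, Itgam, Itgb2, Lyz2, Cybb and Fcer1g, are also expressed by neutrophils. Summed CPM of 10 neutrophil genes was 112 to 231 in sham and 164 to 527 in SNI libraries. Of the 10, 2 rose, S100a8 by 1.02 ± 0.25 and Ltf by 1.21 ± 0.28, where 3.78% of all genes rose. All 10 had an averaged change above 0, and their median log2 change was 0.96, against 0.99 for the 37 genes. DESeq2 called 3 of the 10 higher and limma 4. The call of S100a8 ended without any 1 of 7 libraries, at 0.94 to 1.01, and that of Ltf when replicate 3 of Female SNI, 1 of Male SNI or 1 of Male sham was dropped, at 1.08 to 1.11. Their part in the changes of the shared genes was not tested. T and NK cell genes summed to 0.899 to 8.34 CPM in sham and 1.63 to 5.46 CPM in SNI libraries, and only 2 of 9 passed the filter. B cell genes summed to 1.21 to 4.52 and 1.7 to 2.41 CPM, and mast cell genes to 29.2 to 50.2 and 34.1 to 49.9 CPM. Of 8 cell cycle genes none was called by edgeR, DESeq2 or limma, none had an unadjusted p below 0.05, and the median change was 0.03.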

How the data were processed

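Dorsal root ganglion RNA was read by 3′ end sequencing (QuantSeq, single-end reads on a NextSeq instrument, per the labels' protocols), in 12 libraries of 4 groups taken from the labels. Per the file headers, the deposited values are raw read counts per gene symbol. Bowtie2, bedtools and mm10 stand in the submitters' processing notes with no version, and the sources used here state neither the annotation nor the strand setting. Without strand, reads of overlapping genes cannot be told apart.

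Each file had 23282 rows, and 44 rows that repeat a symbol were summed with it. Counts were filtered (edgeR filterByExpr, minimum count 10), scaled by TMM (factors 0.914 to 1.07) and tested in 1 model of all 4 groups with edgeR's quasi-likelihood test. P-values were adjusted (Benjamini-Hochberg) over 15036 genes, and a gene was called below 0.05. Injury effects were averaged over the sexes, taken within each sex, and compared between sexes. Tools were R 4.3.3, edgeR 4.0.16, limma 3.58.1 and DESeq2 1.42.0. The fit was tested on simulated data. No libraries of a group agreed within sampling noise. Alternatives were other scalings, tools, filters, a replicate block and leaving out libraries.

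The 37 genes and all lists were chosen with earlier results of these data known. Values in every library were given for the 2 genes with the smallest adjusted p and the 1 with the largest in each role, and for all genes of roles with 2. Trem2 and Coro1a were added after their values were seen. In the other lists of myeloid cells and neutrophils the called genes with the largest changes were named, at most 2 in each direction. Pf4, P2ry12, Tmem119 and Sall1 were added after their values were seen. Called genes of the sensory neuron list, where 2 fell, and of the satellite glia list, where 1 rose, were not named. Positions and promoter windows came from RefSeq for GRCm38.p6, the build also called mm10.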

Additional observations from a re-analysis of the deposited data

How the results depend on the processing

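Of the 15 genes that rose, 12 were called under each of 21 alternatives, and Adgre1, Pld4 and Itgam lost the call under some. The averaged count of 15 was 23 with DESeq2 and 12 to 19 with 1 library left out. Over all genes the count of 980 was 2008 with limma, 1848 without Male SNI replicate 2 and Female sham replicate 2, and 626 to 1766 with 1 library left out, the highest without Male SNI replicate 2. In females the count of 6 was 13 with limma, 11 when only the female groups were fitted and 1 to 8 with 1 library left out. In males the count of 8 was 13 with limma, 2 when only the male groups were fitted and 2 to 11 with 1 library left out. The cause of these shifts was not tested. Uncalled changes that took the other sign with 1 library left out were Gpnmb (-0.00 to 0.30, lowest without Female SNI replicate 3), Irf8 (-0.10 to 1.05, below 0 without Male sham replicate 1 or 3) and Cd14 (-0.36 to 0.40, below 0 without replicate 2 of Female sham or 1 of Male SNI). No pairing of libraries by replicate number was seen, as same-number correlations were -0.09 to 0.43 and 5 of 12 libraries matched their own number best. The 0.43 was that of Female sham replicate 2 with Male SNI replicate 2. With 3 libraries in each group these values could not exclude a pairing. With the replicate number as a block the counts were 16 averaged, 5 in females, 7 in males and 936 over all genes, and Pld4 and Itgam lost their calls. Depth limits Itgb2, Cd14 and C5ar1, which fell below a minimum count of 30.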
